A study of Mus musculus with 11 samples.

Results

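Described here are 10 genes of glycolysis, the glucose transporter gene *Slc2a1* and the enzyme genes *Hk1*, *Hk2*, *Pfkl*, *Aldoa*, *Gapdh*, *Pgk1*, *Eno1*, *Pkm* and *Ldha*. They were chosen by name, as the widely expressed forms of the pathway, out of 24849 gene names in the count table. They took 12 of its 26462 entries, since *Hk2* and *Eno1* had 2 each, and the counts of entries with 1 name were summed. All 10 passed the filter on low counts in each comparison.

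The question of the study was what TXNDC5, a protein disulfide isomerase of the endoplasmic reticulum, does in AML12 cells, an immortalised mouse hepatocyte line. The libraries of polyadenylated RNA were 4 of KO, 3 of WT and 4 of KI cells. WT were parental AML12 cells. KO cells, whose genotype is labelled TXNDC5 Knockdown, came from a Cas9 plasmid cutting exon 5 of *Txndc5* together with a donor carrying puromycin resistance and were kept as a stable selected line, and KI cells, labelled TXNDC5 Knockin, expressed TXNDC5 from a construct at the ROSA26 safe harbour. All 3 lines share the AML12 background and its medium with insulin, transferrin, selenium and dexamethasone. The number of clones behind each edited line is not given in the sources used here, so a clone and its genotype cannot be told apart. Nothing in the labels says that libraries of a group came from separate cultures, so p-values measure only the spread between these libraries, which may be technical.

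Glycolysis breaks glucose down to pyruvate in the cytosol. Transport and phosphorylation by a hexokinase trap the sugar, phosphofructokinase commits it, aldolase cleaves it, GAPDH and PGK1 carry out the steps that first give NADH and ATP, and enolase, pyruvate kinase and lactate dehydrogenase lead to pyruvate and lactate. Several steps have forms particular to the liver, such as the liver form of pyruvate kinase, whereas dividing and cultured cells rely mainly on the forms listed above.

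The edited gene was checked first. *Txndc5* counts were 364, 287, 430 and 408 in KO, 3299, 3429 and 4046 in WT and 5654, 6511, 6723 and 5344 in KI. Its level was 10.2 ± 1.90 CPM in KO (SD, n = 4), 143 ± 4.37 in WT (SD, n = 3) and 169 ± 10.3 in KI (SD, n = 4), where CPM are counts scaled to a common library size by TMM over all 11 libraries, a scaling that sets the bulk of the genes level between libraries. All 4 KI libraries lay above the 3 WT libraries, but the difference missed the threshold of an adjusted p under 0.05 in edgeR's quasi-likelihood test (log2 fold change 0.24, adjusted p = 0.136), so KI names the label and not a called rise of the gene. Library totals ran from 29840366 to 38422243 counts. The largest newly assembled entry, which is outside the annotation, took 4.32 to 6.44% of them in KO, 11.3 to 17.1% in WT and 4.82 to 9.12% in KI. Its weight in the values scaled by library totals below was not tested. Of 10 hepatocyte markers, 9 reached 1 CPM in some library and *Cyp2e1* had 0 counts throughout. Their sum was 6330 to 7456 CPM in KO, 3863 to 6024 in WT and 2963 to 3758 in KI, and the high KO sum came from *Alb*, with means of 4115, 513 and 246 CPM in the same order. The other markers together had 2517 to 2878, 3438 to 5651 and 2803 to 3457 CPM. Of these, *Trf*, *Ttr*, *Serpina1a* and *Fgb* had lower means in KO than in WT (1346, 438, 0.595 and 3.63 against 2975, 826, 8.04 and 7.36 CPM). *Hnf4a*, *Apob*, *Apoa1* and *Cps1* had higher means in KO than in WT (275, 642, 23.1 and 2.88 against 107, 401, 1.60 and 0.248 CPM). Of 6 bile duct markers, 4 reached 1 CPM and *Epcam* had 0 counts, with sums of 1339 to 1504, 2975 to 4380 and 2604 to 3083 CPM in the same order. Summed markers of fibroblasts and stellate cells, of endothelial cells and of leukocytes reached 1.82, 0.425 and 9.20 CPM at most, with *Col1a2*, *Lrat* and *Adgre1* at 0 counts. *Spp1* set the low bile duct sum of KO, at a mean of 246 CPM against 2520 in WT and 1958 in KI. Without it the sums were 1086 to 1221, 862 to 1091 and 710 to 974 CPM in KO, WT and KI. *Krt7* was also lowest in KO (17.0 CPM, against 177 in WT and 118 in KI), as were *Sox9* (34.1, against 46.5 and 36.1) and *Cftr* (0, against 0.668 and 0.0829). *Krt19* had its highest mean in KO (1097 CPM, against 770 in WT and 747 in KI). Markers of both lists thus differed between the lines in either direction, and their part in the results below was not tested. Fewer cells of a type and less RNA per cell cannot be told apart in such bulk libraries.

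The 10 genes together made up 10570.5 ± 937 CPM in KO (SD, n = 4), 16491 ± 1761 in WT (SD, n = 3) and 14702 ± 819 in KI (SD, n = 4), and the KO libraries lay below all others on this scale. As shares of the raw counts, without TMM, they made up 1.08 to 1.24% in KO, 1.24 to 1.496% in WT and 1.37 to 1.66% in KI, where KO 5 lay just above WT 7. KO lay apart from WT in 6 of the 10, which all fell (*Slc2a1*, *Pfkl*, *Aldoa*, *Gapdh*, *Pgk1* and *Pkm*), 0 rose and 4 did not pass the test (*Hk1*, *Hk2*, *Eno1* and *Ldha*). Among all 13359 genes tested in that comparison, 55.1% were called, 26.7% higher and 28.4% lower in KO, and for 55.3% the libraries of the groups did not overlap. The median log2 fold change was -0.56 over the 10 genes and -0.03 over all genes. KI cells differed from WT in 2 of the 10, *Eno1* being higher and *Pgk1* lower, where 42.3% of 13534 genes were called (21.2% higher, 21.0% lower) and 44.7% had no overlap. Without WT 7 this number was 1 of the 10, and without WT 8 it was 4. Between KO and KI, *Slc2a1*, *Pfkl*, *Gapdh*, *Pgk1*, *Eno1* and *Pkm* were lower in KO and the other 4 did not pass, with 54.0% of 13269 genes called, 27.0% of them lower and 27.0% higher as shares of the genes tested, and no overlap in 48.6%. The 3 comparisons share libraries pairwise, so their counts are not independent of each other.

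**Figure D1:**
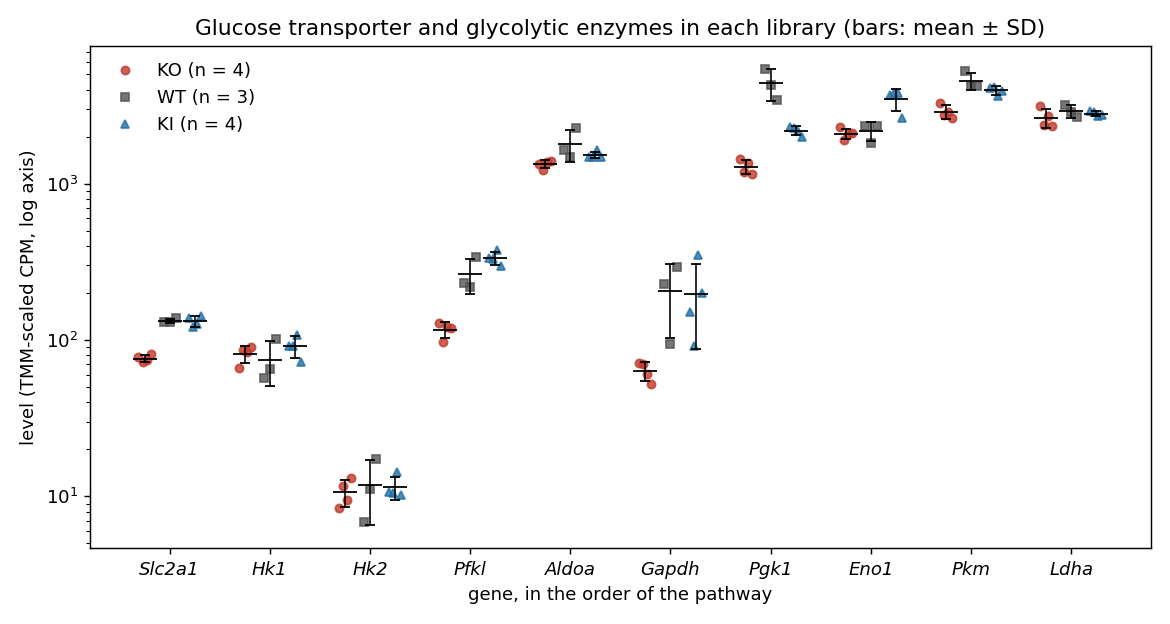
Level of each of the 10 genes (TMM-scaled CPM, log axis) in the 4 KO (circles), 3 WT (squares) and 4 KI (triangles) libraries, with the mean and SD of each group as black bars. The 4 KO libraries lie below all WT and KI libraries for *Slc2a1*, *Pfkl*, *Aldoa*, *Gapdh*, *Pgk1* and *Pkm*, and the *Gapdh* values of WT and KI are spread widely.

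**Figure D2:**
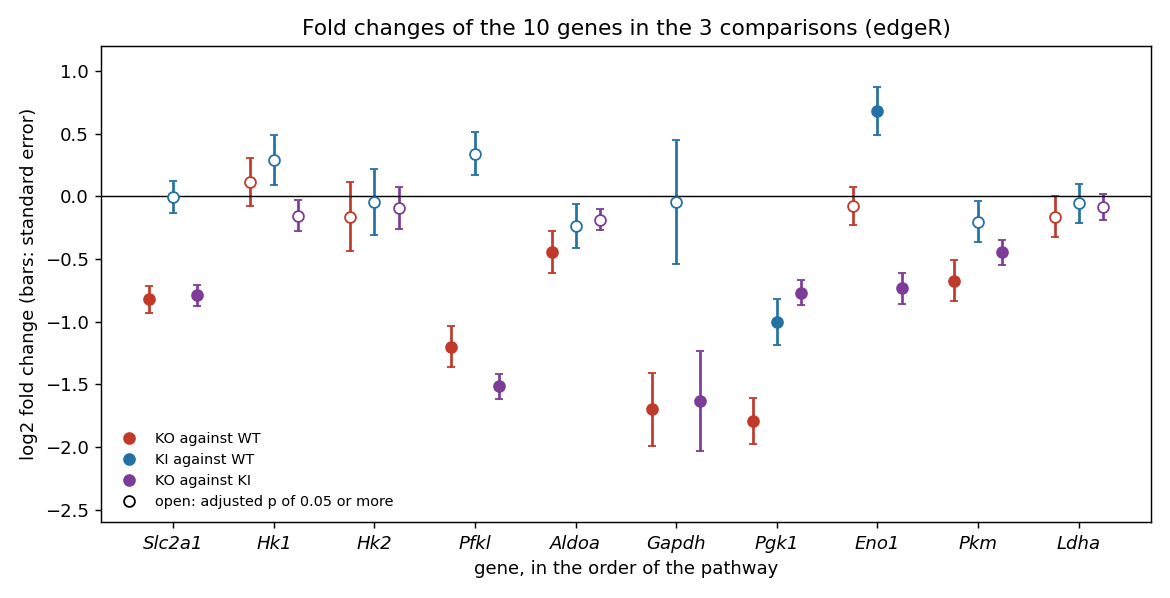
Log2 fold change of each gene with its standard error for KO against WT, KI against WT and KO against KI, from edgeR's quasi-likelihood test. Filled points had an adjusted p under 0.05, and *Gapdh* and *Pgk1* show the lowest values for KO against WT, at -1.70 and -1.80.

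The regions before 3 gene starts are shown because they belong to the pair of genes with the largest falls, *Pgk1* and *Gapdh*, and to *Ldha*, for which no difference was called. They are the 250 bases upstream of a start given by RefSeq, on the strand of the gene and in build GRCm38.p6, at chrX:106186850-106187099 (plus strand) for *Pgk1*, chr6:125165774-125166023 (minus strand) for *Gapdh* and chr7:46845554-46845803 (plus strand) for *Ldha*, which has a second RefSeq start. Capitals mark matches to ACGTG on either strand, the core of the hypoxia response element, which read CACGT on the other strand and overlap in CACGTG, the E-box.
Pgk1: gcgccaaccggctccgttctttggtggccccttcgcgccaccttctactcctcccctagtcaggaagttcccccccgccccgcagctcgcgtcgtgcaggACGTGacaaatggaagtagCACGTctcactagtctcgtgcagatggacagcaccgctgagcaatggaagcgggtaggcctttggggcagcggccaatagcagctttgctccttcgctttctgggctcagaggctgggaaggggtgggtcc
Gapdh: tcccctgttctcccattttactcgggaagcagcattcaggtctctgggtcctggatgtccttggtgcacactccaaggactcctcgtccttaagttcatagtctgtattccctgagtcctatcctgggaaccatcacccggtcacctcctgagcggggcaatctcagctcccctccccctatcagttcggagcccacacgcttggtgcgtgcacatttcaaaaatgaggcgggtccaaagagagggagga
Ldha: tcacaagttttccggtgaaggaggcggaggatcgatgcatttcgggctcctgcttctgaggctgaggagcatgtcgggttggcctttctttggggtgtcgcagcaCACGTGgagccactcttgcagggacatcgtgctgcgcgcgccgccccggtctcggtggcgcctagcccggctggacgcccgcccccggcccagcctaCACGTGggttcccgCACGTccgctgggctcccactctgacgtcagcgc
The *Pgk1* window held 2 matches to ACGTG, at 150 and 131 bases before the start, the *Gapdh* window 0, and the *Ldha* window 5, of which 4 lay in 2 copies of CACGTG. The window of the other *Ldha* start, at chr7:46846832-46847081, held 0 matches to any motif searched. *Ldha* was 1 of 4 genes not called in KO against WT, and it had the most ACGTG matches of them. The *Hk2* window held 2, and all windows of *Hk1* and *Eno1* held 0. Of the genes called, *Slc2a1* had 1 match and *Pfkl* 0, while the windows of *Aldoa* had 1, 1 and 0 and those of *Pkm* 0 and 1. Of all 32851 RefSeq windows of this length 16.6% held ACGTG and 6.02% CACGTG, against 7 and 1 of the 17 windows of the 10 genes, some of which overlap. The GC box, GGGCGG, was found in 9 of the 17 and in 32.7% of all windows, CCAAT in 7 and in 33.8%, and TATAAA in 0 and in 12.4%. These are matches of letters and say nothing on which factor bound.

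*Slc2a1* codes for GLUT1, the glucose transporter of most cultured cells, and its level was lower in KO than in both other lines. It had 77.4, 71.9, 74.1 and 81.3 CPM in the KO libraries. The WT libraries had 129.6, 130.5 and 138 CPM. In KI it was 138, 121, 127 and 143 CPM. WT and KI overlapped around a like mean, and all KO libraries were below them with no overlap. In edgeR's test KO differed from WT by -0.82 (standard error 0.11, adjusted p = 9.7e-05) on the log2 scale and from KI by -0.79 (standard error 0.09, adjusted p = 1.95e-06), whereas KI differed from WT by -0.01 (standard error 0.13, adjusted p = 0.971). It also had the smallest spread between libraries of a group among the 9 of the 10 genes that averaged 5 or more in log2 CPM, with an SD of 0.09.

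*Hk1* and *Hk2*, hexokinases that phosphorylate glucose on entry, showed no called difference in the 3 comparisons. *Hk1*, the form of most tissues, ranged over 66.7 to 90.4 CPM in KO, 57.3 to 101 in WT and 72.1 to 108 in KI. *Hk2*, the insulin-regulated form, ranged over 8.47 to 13.2, 6.87 to 17.3 and 10.2 to 14.4 CPM. All groups overlapped for both genes, and the highest WT value of each came from WT 8. The log2 fold changes of *Hk1* were 0.11 (KO against WT, adjusted p = 0.646) and 0.29 (KI against WT, adjusted p = 0.26) in edgeR's test. WT 8 decided both, since without it they were 0.43 (adjusted p = 0.0161) and 0.58 (adjusted p = 0.00758), higher in both edited lines. For *Hk2* they were -0.16 (standard error 0.28) and -0.05 (standard error 0.26), signs that turned to 0.25 and 0.34 without WT 8. *Hk3* had 0 counts in all 11 libraries. *Hkdc1*, a further hexokinase, had 7, 0, 0 and 6 counts in KO, 0 in every WT library and 12, 15, 4 and 14 in KI. It was called higher in KI than in WT (adjusted p = 0.0117 by edgeR), at least 2.68-fold against a floor of 3 counts per WT library, a call on at most 15 counts that limma did not make (adjusted p = 0.0713). Without KI 5, KI 6 or KI 8 it did not pass the filter on low counts.

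*Pfkl*, the liver-type subunit of phosphofructokinase, was lower in KO than in WT and KI. Its KO libraries had 128, 97.6, 121 and 119 CPM. The WT libraries had 232, 219 and 341 CPM, the last being WT 8. KI had 333, 329, 376 and 298 CPM. The highest KO library was below the lowest of the others, while WT 8 reached into the range of KI. KO was 2.30-fold lower than WT and 2.86-fold lower than KI, with log2 differences of -1.20 (standard error 0.17, adjusted p = 0.000136) and -1.52 (standard error 0.10, adjusted p = 1.03e-08) in edgeR's test. KI against WT was 0.34 (standard error 0.17, adjusted p = 0.127) and not called, but without WT 8 it was 0.57 (adjusted p = 0.00262). Of the other subunits, *Pfkp*, the platelet type, fell in both edited lines against WT (-1.24 in KO, adjusted p = 0.000105, and -1.58 in KI, adjusted p = 2.39e-05, in edgeR's test). *Pfkm*, the muscle type, was lower in KO than in KI (-0.64, adjusted p = 0.000218), as *Pfkl* was. Against WT *Pfkm* was not called in KO (-0.31, adjusted p = 0.0671) or KI (0.35, adjusted p = 0.0857) in the same test.

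*Aldoa*, the aldolase of muscle and most cultured cells, had 1342, 1224, 1379 and 1399 CPM in KO. It had 1638, 1483 and 2267 CPM in WT and 1485, 1491, 1632 and 1482 CPM in KI. The KO libraries were below all others by a small gap, and WT 8 stood far above the other WT libraries. The fall from WT to KO was called, at -0.44 (standard error 0.17, adjusted p = 0.0412) in edgeR's test, but it was the weakest of the 6. The call was lost when any 1 of KO 5, KO 6, KO 7, KO 8 or WT 8 was left out, with values between -0.47 and -0.22 and adjusted p between 0.0727 and 0.14, and when library totals replaced TMM (-0.06, adjusted p = 0.817). KI against WT (-0.24, adjusted p = 0.288) and KO against KI (-0.18, adjusted p = 0.0873) did not pass in the same edgeR test. *Aldoc*, the aldolase of brain, fell by 1.15 in KO and 1.21 in KI against WT on the log2 scale (adjusted p = 5.84e-05 and 3.19e-05 by edgeR).

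*Gapdh*, the glyceraldehyde-3-phosphate dehydrogenase gene that is often used as a reference for RNA levels, was low and uneven here. Its raw counts were 2552, 2364, 2036 and 2276 in KO, 5121, 2334 and 8271 in WT and 5411, 3329, 13333 and 6557 in KI. Scaled, the KO libraries had 71.6, 70.0, 61.1 and 52.4 CPM. The WT libraries had 228, 94.2 and 293 CPM and the KI libraries 151, 91.8, 348 and 199 CPM. The KO libraries were close together and below all others, but WT 7 and KI 6 came close to them, while WT 8 and KI 7 were the highest of their groups. The highest library exceeded the lowest 1.37-fold in KO, 3.11-fold in WT and 3.80-fold in KI. Its SD between libraries of a group was 0.67 on the log2 CPM scale, against a median of 0.18 over the 5265 genes that averaged 5 or more, and 11 of these had a larger SD.

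Even so, *Gapdh* was called lower in KO, with log2 differences of -1.70 (standard error 0.29, adjusted p = 0.000546) against WT and -1.63 (standard error 0.40, adjusted p = 0.0115) against KI in edgeR's test. KI against WT was -0.05 (standard error 0.49, adjusted p = 0.95), where the standard error leaves room for a difference in either direction. With each library left out in turn, KO against WT stayed between -2.03 and -1.33 and KO against KI between -1.87 and -1.20, the last without KI 7 (adjusted p = 0.0429). *Gapdh* took between 0.525 and 2.34% of the counts of the 10 genes. Per kilobase of summed exon it had 15.4 ± 2.15 CPM in KO (SD, n = 4), 49.6 ± 24.5 in WT (SD, n = 3) and 47.8 ± 26.5 in KI (SD, n = 4), which gave it rank 8, 6 and 7 of the 10 genes. *Pgk1*, the next step of the pathway, had 570.5 ± 59.7, 1954 ± 448 and 975 ± 67.8 CPM per kilobase.

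*Gapdh* is also the gene of the set with the most copies in the genome. Of the stretches of 100 bases in its longest coding transcript in GENCODE (build GRCm38, gene at chr6:125161715-125166467, minus strand), 78.0% occurred exactly in a transcript of a gene elsewhere, 86 genes in all, of which 82 are annotated as pseudogenes and 2 have an entry in the count table. For *Pgk1* (chrX:106187100-106203699) the share was 67.0%, with 3 pseudogenes, and for *Eno1* (chr4:150236721-150248879) 59.0%, with 3 pseudogenes and the gene *Eno1b*. It was 6.82% for *Pkm*, 1.28% for *Ldha* and 0 for the other 5. *Pgk1* and *Eno1* had SDs of 0.20 between libraries of a group, near the median of 0.18. Other entries annotated as glyceraldehyde-3-phosphate dehydrogenase had at most 81 counts, the most being those of *Gapdhs*, the sperm form. How reads that match several copies were counted is not given in the sources used here, so levels of *Gapdh*, *Pgk1* and *Eno1* are uncertain to that extent, and the part of the copies in their values was not tested.

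**Figure D3:**
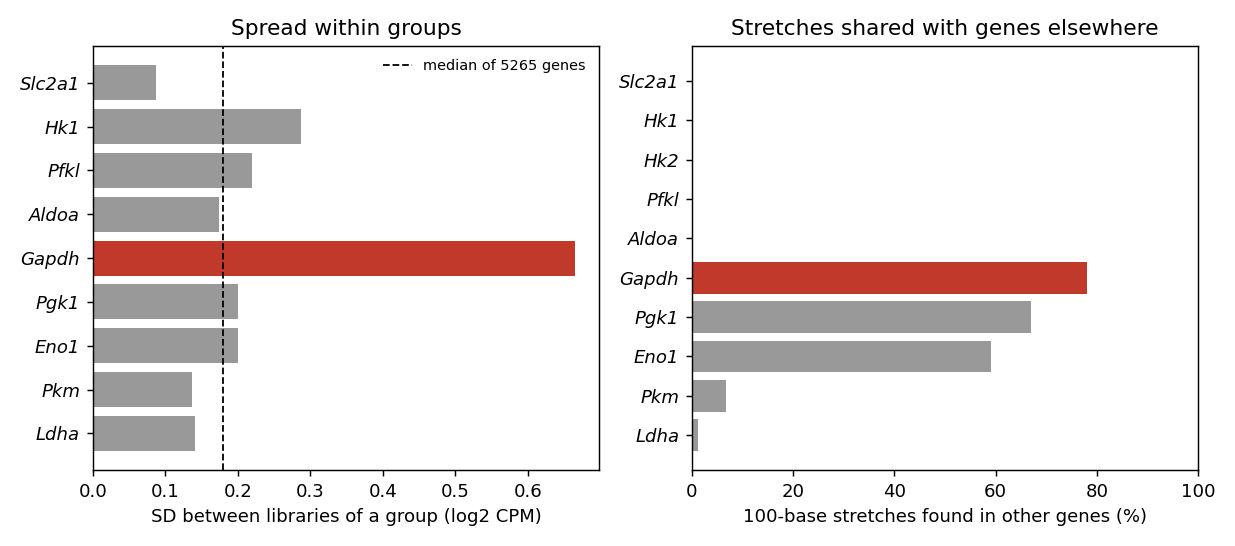
Left, SD between libraries of a group (log2 CPM) for the 9 genes that averaged 5 or more, with the median of 5265 genes as a dashed line. Right, share of the 100-base stretches of each gene's longest coding transcript that occur in genes elsewhere (%). *Gapdh*, in red, has the highest value in both panels (0.67 and 78.0%), while *Pgk1* and *Eno1* have high shares and a spread near the median.

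Across the 11 libraries, the genes whose log2 CPM was most like that of *Gapdh* were *Foxo4* (Pearson r = 0.88), *Glis3* (0.87), *Pcm1* (0.87), *Acadl* (0.85) and *Dhrs3* (0.85), among 5264 genes. Of the glycolytic genes, *Pfkl* came nearest with 0.82, followed by *Slc2a1* (0.79) and *Aldoa* (0.75), and *Hk1* was least like it with 0.17. These values describe 11 points that share groups, depth and scaling. WT 8 was the highest WT library for 6 of the 10 genes, *Slc2a1*, *Hk1*, *Hk2*, *Pfkl*, *Aldoa* and *Gapdh*, and the lowest for *Pgk1* and *Ldha*. KI 7 was the highest KI library for *Hk1*, *Hk2*, *Pfkl*, *Aldoa*, *Gapdh* and *Eno1*, and the lowest for *Pkm* and *Ldha*.

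*Pgk1*, the phosphoglycerate kinase of somatic cells, was the gene of the set with the lowest fold change between KO and WT, and it was lower in KI as well. The KO libraries had 1432, 1183, 1352 and 1153 CPM. The WT libraries had 5429, 4304 and 3423 CPM. KI had 2318, 2279.5, 2172 and 1979 CPM. The 3 groups did not overlap, in the order KO, KI, WT. KO was 3.47-fold and KI 2.00-fold lower than WT, which on the log2 scale was -1.80 (standard error 0.18, adjusted p = 1.82e-05) and -1.0 (standard error 0.18, adjusted p = 0.000954), and KO against KI was -0.77 (standard error 0.10, adjusted p = 1.18e-05), all from edgeR. *Pgk2*, the form of sperm cells, had 0 counts. The neighbouring steps moved alike in KO: *Tpi1*, triose phosphate isomerase, had a log2 fold change of -1.17 (adjusted p = 0.000606) and *Pgam1*, phosphoglycerate mutase, -1.0 (adjusted p = 0.000438) against WT in edgeR's test. *Gpi1*, glucose-6-phosphate isomerase, had -0.47 (adjusted p = 0.0282 by edgeR), a call lost without any 1 of the 4 KO libraries or WT 8, with values from -0.51 to -0.24, and with library totals (-0.09). In KI against WT, *Tpi1* (-0.52, adjusted p = 0.0397) and *Gpi1* (-0.57, adjusted p = 0.0144) were also called lower by edgeR, and *Pgam1* (-0.35, adjusted p = 0.115) was not. Both KI calls were lost with library totals (-0.17 and -0.27). That of *Tpi1* was also lost without any 1 of WT 5-6, WT 7, KI 5, KI 6 or KI 7, and that of *Gpi1* without KI 5.

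*Eno1*, the enolase of most tissues, rose in KI and did not pass the test in KO. It had 2288, 1892, 2077 and 2093 CPM in KO. The WT libraries had 2353, 1832 and 2345 CPM. The KI libraries had 3689, 3778, 3826 and 2635 CPM, with KI 8 well below the other KI libraries. KO and WT overlapped, and KI lay above both. KI was 1.60-fold higher than WT, or 0.68 (standard error 0.19, adjusted p = 0.0117) on the log2 scale, and KO was at -0.73 (standard error 0.12, adjusted p = 0.000126) against KI and -0.08 (standard error 0.15, adjusted p = 0.684) against WT in edgeR's test. The KI call was lost without WT 7 (0.57, adjusted p = 0.0702), the lowest WT library. Both table entries named *Eno1* gave like values, 0.66 and 0.68 for KI against WT. *Eno1b*, a copy that shares sequence with it and whose reads could be mixed with those of *Eno1*, had 0.65 (adjusted p = 0.00753 by edgeR) in KI against WT. *Eno2*, the enolase of nerve, fell by 2.60 in KO (adjusted p = 1.27e-06) and by 1.04 in KI (adjusted p = 0.000387), and *Eno3*, that of muscle, fell by 1.09 in KO (adjusted p = 2.89e-05) and was not called in KI (-0.04, adjusted p = 0.816), all on the log2 scale against WT by edgeR.

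*Pkm*, which codes for both muscle-type pyruvate kinases, was lower in KO than in WT and KI. Its KO libraries had 3288, 2762, 2873 and 2614 CPM. WT had 5216, 4184 and 4209 CPM and KI 4088, 4137, 3612 and 3941 CPM. KO lay below both groups without overlap, and KI lay just below WT. The log2 differences were -0.67 (standard error 0.16, adjusted p = 0.00457) for KO against WT, -0.20 (standard error 0.17, adjusted p = 0.351) for KI against WT and -0.45 (standard error 0.10, adjusted p = 0.0015) for KO against KI by edgeR. When library totals replaced TMM the first was -0.25 and not called (adjusted p = 0.0945). That scaling moved the median of all genes in KO against WT from -0.03 to 0.38, so that 72.8% of the called genes were higher and 27.2% lower, in place of 48.5% and 51.5%. Set against that median, the 10 genes differed little between the scalings, with *Pkm* at -0.64 and -0.63, *Aldoa* at -0.41 and -0.44 and *Pgk1* at -1.76 and -1.74.

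*Ldha*, which turns pyruvate into lactate, showed no called difference between the 3 lines. It had 3123, 2356, 2705 and 2352 CPM in KO, 3203, 2856 and 2668 in WT and 2905, 2872, 2689 and 2733 in KI. All groups overlapped, with KO 5 near the highest WT library. The log2 differences were -0.16 (standard error 0.16, adjusted p = 0.42), -0.06 (standard error 0.16, adjusted p = 0.798) and -0.08 (standard error 0.11, adjusted p = 0.521) for KO against WT, KI against WT and KO against KI in edgeR's test, which does not show that the levels are equal. *Ldhb* had at most 11 counts and *Ldhc* at most 5. *Ldhd*, which acts on D-lactate in mitochondria, fell in both edited lines against WT, at -2.65 in KO (adjusted p = 4.45e-07) and -2.37 in KI (adjusted p = 1.6e-07) on the log2 scale by edgeR.

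Per kilobase of summed exon, *Ldha* had the highest mean of the 10 genes in KO, with 796 ± 111 CPM per kilobase (SD, n = 4). *Pkm* (577 ± 57.9), *Pgk1* (570.5 ± 59.7), *Aldoa* (459 ± 26.9) and *Eno1* (388 ± 30.1) came next, and the first pair of these did not differ beyond its spread. In WT and KI, *Pgk1* had the highest mean, 1954 ± 448 (SD, n = 3) and 975 ± 67.8 (SD, n = 4) CPM per kilobase. *Slc2a1*, *Pfkl* and *Gapdh* lay between 15.4 and 50.03 in all lines, and *Hk2* was the lowest in each, at 1.79, 1.97 and 1.92 in KO, WT and KI. The length of the longest coding transcript in place of the summed exons gave *Eno1* rank 1 in KI and *Gapdh* rank 6 in all 3 lines.

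The rest of the pathway was described from 6 lists with 99 genes, of which 82 were tested between KO and WT. Of these, 16 rose and 34 fell, where 26.7% and 28.4% of all tested genes did, with a median log2 fold change of -0.30. With library totals in place of TMM, 23 were higher and 19 lower with a median of 0.12, so that the balance and the sign of the median turned. Set against the median of all genes, the median of the lists was -0.27 with TMM and -0.26 with library totals. In the list of other glycolytic forms and steps, 12 of 21 tested genes fell and 3 rose in KO against WT, in that of hexose and monocarboxylate transporters 2 of 9 fell and 3 rose, and among genes that control glycolysis 9 of 20 fell and 4 rose. Of the pyruvate dehydrogenase list 4 of 14 fell and 2 rose, of gluconeogenesis 2 of 7 fell and 1 rose, and of the pentose phosphate pathway 5 of 11 fell and 3 rose. In KI against WT, 35 of 84 tested genes fell and 13 rose, where 21.0% of all genes fell and 21.2% rose, but with library totals 22 were lower and 24 higher. Of all genes called with library totals in KI against WT, 23.7% were lower and 76.3% higher. Between KO and KI 26 of 82 were lower and 28 higher in KO, where 27.0% of all genes were called in each direction.

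Between KO and WT, the lowest fold change of these lists was that of a gene of lactate export. *Slc16a3*, the lactate exporter MCT4, had 1.96 ± 0.59 CPM in KO (SD, n = 4), 52.2 ± 7.21 in WT (SD, n = 3) and 34.8 ± 0.91 in KI (SD, n = 4), with log2 differences of -4.74 (standard error 0.23, adjusted p = 1.34e-07) for KO against WT and -0.58 (standard error 0.13, adjusted p = 0.00398) for KI against WT by edgeR. *Bsg*, the chaperone protein of the monocarboxylate transporters, had -1.27 (adjusted p = 3.62e-05) and -0.62 (adjusted p = 0.00766) in the same test. When scaled by library totals, the KI values of *Slc16a3* (-0.26) and *Bsg* (-0.29) were no longer called. Among glucose and related transporters, *Slc2a6* rose in KO (2.23, adjusted p = 8.43e-06 by edgeR) and fell in KI (-0.79, adjusted p = 0.0455 by edgeR). The latter call was lost with library totals (-0.47) and without any 1 of KI 5, KI 6, KI 7, KI 8, WT 5-6 or WT 8. *Slc2a2*, the GLUT2 gene of hepatocytes, fell in KI (-1.94, adjusted p = 3.19e-06 by edgeR). *Slc2a3* had at most 2 counts per library.

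Of the genes that control the pathway, *Pfkfb2*, a maker of the phosphofructokinase activator fructose-2,6-bisphosphate, rose in KO by 1.21 on the log2 scale (adjusted p = 1.02e-05 by edgeR). *Txnip*, an inhibitor of glucose uptake, fell by 1.11 in KO (adjusted p = 3.15e-05) and by 2.05 in KI (adjusted p = 1.32e-06) against WT by edgeR. *Egln3*, an oxygen-sensing prolyl hydroxylase, fell by 1.21 in KO (adjusted p = 2.24e-05) and less in KI (-0.36, adjusted p = 0.0367), both against WT by edgeR. The KI call of *Egln3* was lost with library totals (-0.033) and without any 1 of WT 7, KI 5, KI 6 or KI 7. *Ppp1r3c*, a glycogen-targeting subunit of protein phosphatase 1, had the lowest fold change of the lists in KI against WT, at -4.98 (standard error 0.61, adjusted p = 5.55e-05) by edgeR, with 165, 101 and 121 counts in WT and 0, 14, 3 and 6 in KI. *Pdk1*, which inhibits pyruvate dehydrogenase, fell by 1.05 and 1.04 in KO and KI (adjusted p = 6.63e-05 and 6.75e-05 by edgeR). *Mpc1*, part of the mitochondrial pyruvate carrier, fell by 1.30 and 0.87 (adjusted p = 0.000154 and 0.00241 by edgeR). In the pentose phosphate pathway *Pgd* rose by 1.11 and 0.73 (adjusted p = 3.49e-05 and 0.00211) and *Taldo1* by 0.94 and 0.75 (adjusted p = 7.44e-05 and 0.00313) in KO and KI against WT by edgeR. In the same list *Shpk* fell by 0.85 and 1.85 (adjusted p = 0.00201 and 1.34e-05) and *Rpe* by 0.79 and 1.04 (adjusted p = 0.0074 and 0.00302) by edgeR. Of its 11 tested genes 3 rose and 5 fell in KO, and 4 rose and 3 fell in KI. *Pck2*, of gluconeogenesis, rose in KO (0.62, adjusted p = 0.00104) and fell in KI (-0.54, adjusted p = 0.00605) by edgeR, the latter not called with library totals (-0.23). It was the only gene of its list called higher in KO. *Pcx* of that list fell by 1.12 and 1.81 (adjusted p = 0.000243 and 6.99e-06) and *Mdh1* by 1.34 and 1.12 (adjusted p = 0.000353 and 0.00127) in KO and KI by edgeR. These comparisons share the WT libraries.

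**Figure D4:**
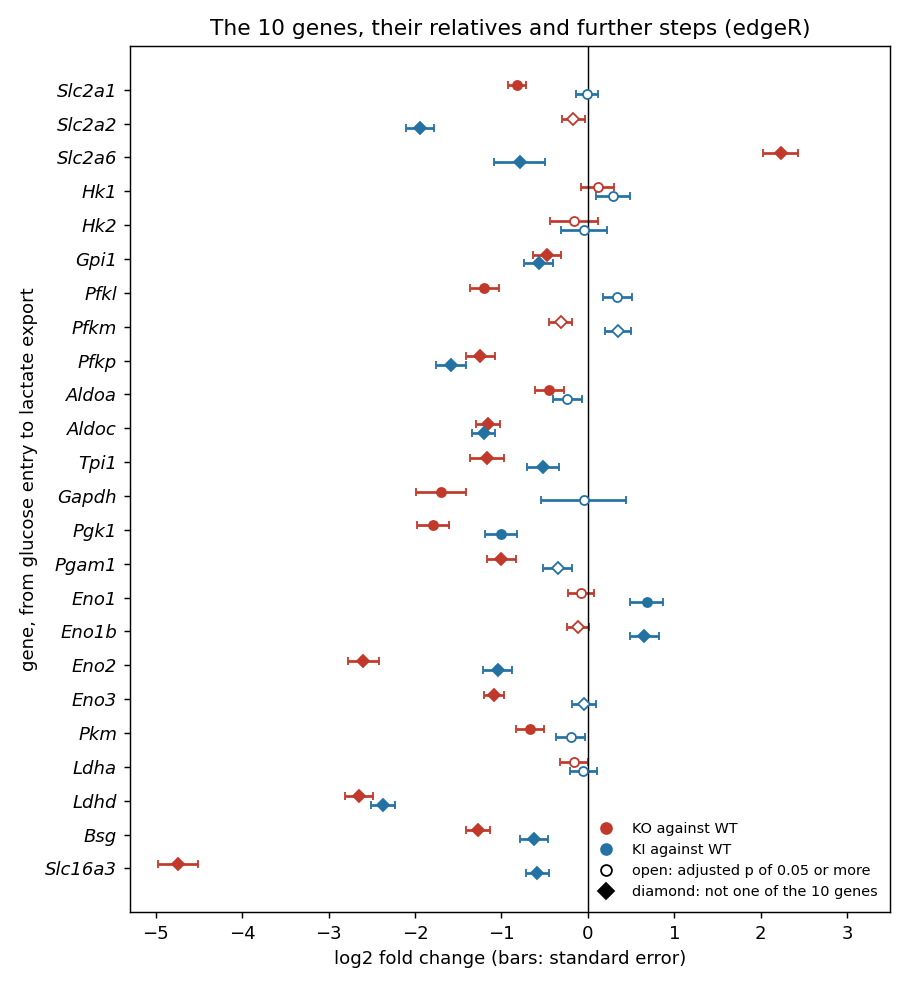
Log2 fold change with its standard error against WT for KO (red) and KI (blue), from glucose entry to lactate export, from edgeR. Circles are the 10 genes and diamonds are relatives and further steps, both open where not called. *Slc2a6* lies to the right in KO at 2.23, and *Slc16a3* to the left at -4.74.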

How the data were processed

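The authors' sequencing provider cleaned, mapped and counted the reads, and the authors deposited the read counts per gene without normalization. The submitters' processing notes name HISAT2, TopHat2, Bowtie2 and StringTie without roles, and build and strand setting are not given in the sources used here. Lines with broken annotation and no counts, 10 in all, were left out. FPKM columns, which lost their decimal points, and columns of the authors' own comparisons (fold changes and adjusted p-values) were not used.

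Counts were summed by gene name and tested in R 4.3.3 with edgeR 4.0.16 (filterByExpr, TMM, robust quasi-likelihood test, libraries of the 2 groups only), with Benjamini-Hochberg adjustment over all genes tested and a threshold of 0.05. This test was run on simulated data first. DESeq2 1.42.0 and limma 3.58.1 served as alternatives. Levels in CPM use 1 TMM scaling over 11 libraries. Libraries of a group differed by more than counting noise in each pair (chi-square per gene 17.1 to 169). The replicate numbers were not used as pairs.

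The members and lists were chosen with earlier results of these data known. The genes named are the 10 members, *Txndc5*, the cell type markers, the relatives of each member, in each list and comparison the 2 called genes with the largest rise and fall, and the 5 most like *Gapdh*. Those printed beyond the members were picked from these with their values known, and some genes of these lists are not reported here. Counts of 3 or fewer were taken as the floor of detection, for counting error only.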

Additional observations from a re-analysis of the deposited data

Results flagged for a closer look

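In groups of 4 libraries, 7 of 77 group values tested by Dixon's ratio (the gap of the end library to its neighbour over the range of the group) passed the limit that chance passes in about 1 of 20, which would be 3.85. KI 7 stood above the other KI libraries for 3 genes: for *Hk2* with 14.4 CPM against 10.2 to 10.6 (ratio 0.895), for *Aldoa* with 1632 against 1482 to 1491 (ratio 0.937) and for *Txnip* with 88.4 against 65.7 to 68.2 (ratio 0.89). KI 8 stood below for *Eno1*, with 2635 CPM against 3689 to 3826 (ratio 0.885). KI 6 stood above for *Eno3*, with 127 CPM against 97.1 to 102 (ratio 0.841). The other 2 rest on few counts, *Ldhc* with 5 counts in KO 6 and *Slc2a3* with 2 in KI 7 while the rest of each group had 0 (ratio 1 for both). Their causes were not tested.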

How the results depend on the processing

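Over the 3 comparisons, the 10 genes gave 520 values under other settings or with 1 library left out, of which 475 kept direction and call, 13 lost a call, 5 gained one and 27 changed sign. All that changed sign were uncalled as reported. The other genes printed, where called, with the uncalled *Eno3* in KI against WT, gave 1051 values, of which 999 kept direction and call, 50 lost the call and 2 changed sign, both of *Eno3* in KI against WT (0.28 with library totals and 0.088 with the entry of most counts). *Shpk*, *Rpe*, *Pcx* and *Mdh1* were not among these genes. When library totals replaced TMM, the sign turned for KO against WT in *Hk2* (0.21), *Eno1* (0.33) and *Ldha* (0.25), and for KI against WT in *Slc2a1* (0.32), *Hk2* (0.24), *Aldoa* (0.068), *Gapdh* (0.27), *Pkm* (0.13) and *Ldha* (0.28), in each case with a median of all genes of 0.38 and 0.31. It also turned for KI against WT in *Slc2a1* without a filter (0.0045) and *Hk2* with limma (0.032). With 1 library left out, values that changed sign ranged from -0.026 to 0.43 for *Hk1*, -0.41 to 0.25 for *Hk2* and -0.17 to 0.0050 for *Eno1* in KO against WT, from -0.044 to 0.033 for *Slc2a1*, -0.31 to 0.34 for *Hk2*, -0.47 to 0.30 for *Gapdh* and -0.11 to 0.020 for *Ldha* in KI against WT, and from -0.21 to 0.040 for *Hk2* in KO against KI.

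Of the 10 genes, 5 to 6 were called in KO against WT, 1 to 4 in KI against WT and 6 in KO against KI with 1 library left out. Genes of the 6 lists called were 46 to 54, 40 to 51 and 51 to 57, and of all genes 6161 to 8449, 4276 to 6969 and 6515 to 7230. With library totals, 76.3% of the genes called in KI against WT were higher in KI, in place of 50.2%.

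With the replicate number as a block, libraries of 1 number did not pair (correlations of their deviations across genes between -0.19 and 0.21). The replicate block fit kept only numbers found in both groups. Against WT these were 7 and 8, so WT 5-6 and libraries 5 and 6 of the edited line were left out. KO against KI kept all its libraries. In the replicate block fit KI against WT gave 1364 genes called in place of 5722, 0 of the 10 in place of 2, 15 list genes in place of 48, and *Gapdh* at 0.66. KO against WT gave 6176 called genes in place of 7364 and 4 of the 10 in place of 6, *Aldoa* (-0.43, adjusted p = 0.104) and *Gapdh* (-1.59, adjusted p = 0.105, both by edgeR) being lost, and KO against KI kept its count of 6. The parts of the fewer libraries and of the block itself in the lost calls against WT were not tested. Reads from near-identical copies limit what can be said of *Gapdh*, *Pgk1* and *Eno1*, and counts of 3 or fewer could not be told from 0.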
